A study of Mus musculus with 6 samples.

Results

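The transforming growth factor beta (TGF-β) superfamily was examined gene by gene, from secreted ligands through receptors to the Smad proteins that carry the signal. Its members are the 48 genes, of 59485 in the deposited table, whose symbol is that of a *Tgfb*, *Bmp*, *Gdf* or inhibin-subunit ligand, of a *Tgfbr*, *Bmpr* or *Acvr* receptor, or of a *Smad*. *Gdf15* was left out by that rule. By role, 27 encode ligand subunits, 12 encode receptors or a co-receptor, and 8 encode Smads. *Bmp1* carries a ligand name but encodes a protease and is counted apart.

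Sciatic nerves were taken at postnatal day 4 (P4) from 3 animals labelled wild-type and 3 animals labelled Ht-PA-Cre; Adar1fl/fl;R26R, and each animal gave 1 poly-A RNA-seq library. In the mutants, a Cre transgene under control of the promoter of human tissue plasminogen removes the floxed *Adar1* segment in neural crest (NC) cells and their derivatives, and R26R is a fluorescent tracer allele. Schwann cells (SCs) derive from the NC, whereas endothelial cells and macrophages of the nerve do not and keep the gene. The comparison asks how the transcriptome of the nerve differs when *Adar1*, which encodes an RNA editing enzyme, is deleted in that lineage.

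Ligands of this superfamily are made as precursors, cleaved, and secreted as dimers. A dimer brings together type II receptors, which are constitutively active kinases, and type I receptors, which they phosphorylate. The type I receptor then phosphorylates a receptor-regulated Smad, Smad2 or Smad3 for TGF-βs and activins and Smad1, Smad5 or Smad9 for bone morphogenetic proteins (BMPs). These enter the nucleus with Smad4, and Smad6 and Smad7 inhibit the process as feedback regulators. In peripheral nerve, TGF-β is known as a regulator of SC proliferation, survival and the response to injury.

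Values are reads divided by a size factor per library, called normalized reads here, and they are not divided by gene length, so levels are compared between libraries and not between genes. Libraries held 50938349 to 78250094 reads on genes, and 1 read was worth 0.727 to 1.27 normalized reads. *Adar* itself, the targeted gene, went against the labels: it read 1602, 2066 and 1133 normalized reads under the wild-type label and 11768, 9311 and 9773 under the mutant label. The value covers the whole gene, so the deleted segment cannot be told apart in it, and the libraries are named by their labels, control-labelled or mutant-labelled. The summed level of 8 SC markers was 2529149 to 3241936 in control-labelled and 70241 to 354140 in mutant-labelled libraries, with 6 of the 8 lower past the threshold, while 6 of 8 skeletal muscle markers were higher, with sums of 4371 to 21158 against 27738 to 197923. Sums were lower for fibroblast markers (2457020 to 2849758 against 975038 to 1453487, 3 of 6 lower past the threshold), cartilage and bone markers (10288 to 13862 against 290 to 737, 3 of 6 tested) and erythroid markers (39570 to 55612 against 3820 to 11722, 3 of 4). Perineurial markers were lower too, at 16302 to 19665 against 13507 to 15466 (1 of 3). Neuron markers were higher, at 2434 to 2620 against 5598 to 5854 (2 of 4), and so were the low lymphocyte markers, at 96.3 to 228 against 304 to 404 (3 of 7 tested). Of 8 macrophage markers 3 were lower, with overlapping sums of 20572 to 25995 against 20089 to 23538, and 0 of 5 mural and 0 of 2 tested neutrophil markers passed. No marker of these lists was at 0 in all libraries, and their part in the results that follow was not tested. In such bulk samples, fewer cells of a type and less RNA per cell cannot be told apart.

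Of the 48 members, 42 had a mean of at least 10 normalized reads in at least 1 genotype and were tested. In limma's test on log2(value + 1), the threshold was a difference of 2-fold or more with an unadjusted p of 0.05 or less. Among the 42, 12 passed (28.6%), next to 24.2% of all 25802 genes tested. The direction was uneven. Higher in the mutant-labelled libraries were 10 members (23.8%, against 13.9% of all genes tested), namely *Inhba*, *Inhbb*, *Bmp2*, *Bmp8b*, *Bmp15*, *Gdf6*, *Gdf11*, *Smad3*, *Smad6* and *Smad7*. Lower were 2 (4.76%, against 10.4%), *Bmp7* and *Acvr2b*. All of the 12 but *Bmp15* also had a Benjamini-Hochberg adjusted p at or under 0.05, and 19.9% of all genes tested met both limits. The median log2 fold change was 0.61 over the 42 members and 0.03 over all genes tested.

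At an adjusted p at or under 0.05 with no limit on the size of the change stood 21 members, next to 35.0% of all genes tested. Of these 21, 18 were higher and 3 lower, where 19.0% of all genes tested were higher and 16.0% lower, and 10 differed by less than 2-fold. The 3 and 3 libraries did not overlap for 22 of the 42 (52.4%, against 49.2% of all genes tested), with the mutant-labelled ones above for 19 and below for 3. Over all genes tested they were above for 25.9% and below for 23.3%. By role, 7 of the 21 tested ligand genes were higher past the threshold and 1 lower. Of the 12 receptors 0 were higher and 1 lower, and of the 8 Smads 3 were higher and 0 lower. Over all genes tested, 13.9% were higher past the threshold and 10.4% lower.

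**Figure D1:**
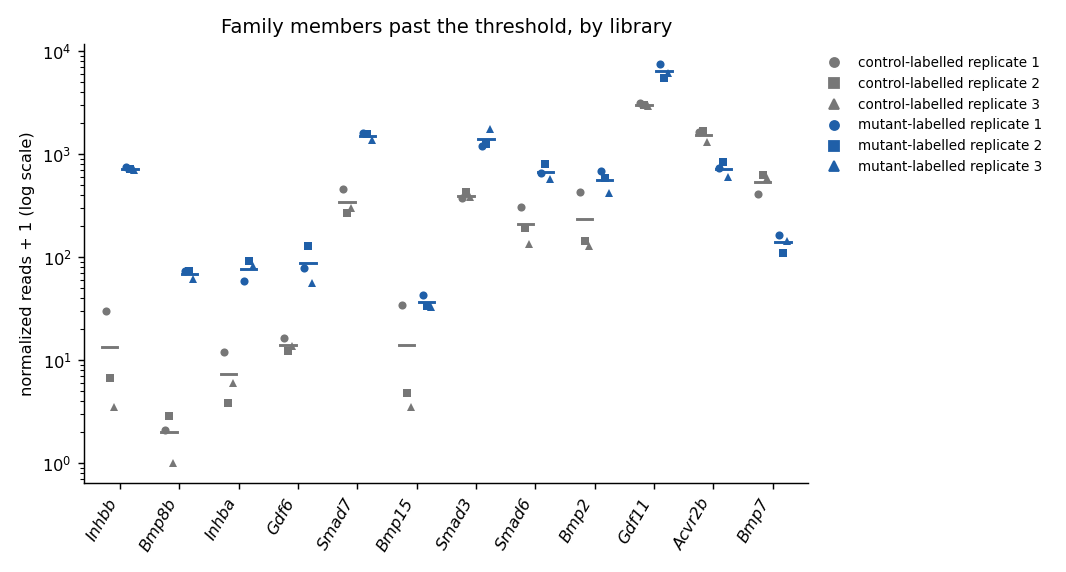
Normalized reads plus 1 in each of the 6 libraries for the 12 members past the threshold, on a log10 axis; points are single libraries and lines are group means. In *Bmp2* and *Bmp15* the control-labelled replicate 1 lies within the range of the mutant-labelled libraries, and in the other 10 genes the groups do not overlap.

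The activin β subunit genes *Inhbb* and *Inhba* rose, and of the 42 tested members they and *Bmp8b* changed most on the log2 scale. Activins are dimers of β subunits, and the inhibins pair a β subunit with the α subunit encoded by *Inha* and oppose them. *Inhbb* (chromosome 1, 119415463 to 119423899, minus strand, mm10), the activin βB subunit, read 28.9, 5.67 and 2.53 in the control-labelled libraries and 756, 717 and 695 in the mutant-labelled ones. Every mutant-labelled library was above 600 and every control-labelled one below 30. The means were 12.4 ± 14.4 and 723 ± 31.0 (SD, n = 3 each), 58.5-fold apart. On the log2 scale the change was 6.35 (SE 0.70, adjusted p = 0.000272 with limma), and it stayed between 5.68 and 7.22 with any 1 library left out.

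*Inhba*, the βA subunit, read 11.1, 2.83 and 5.07 against 57.5, 90.7 and 82.1. The groups lay well apart at a low level, with control-labelled libraries holding 3 to 10 reads and mutant-labelled ones 79 to 94. The log2 fold change was 3.54 (SE 0.61, adjusted p = 0.00263). *Inha* behaved otherwise, at 702, 849 and 896 against 774, 735 and 607. Its groups overlapped and the log2 fold change of -0.21 did not pass (95% interval -0.57 to 0.15, adjusted p = 0.34). The liver-type subunits *Inhbc* and *Inhbe* were too low to test, with highest values of 11.3 and 5.82.

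Promoter windows of the members were searched for 3 short motifs. RefSeq windows of 250 bases before to 50 after a gene's start (build GRCm38.p6) were at hand for 28 of the 42 tested members and for 8 of the 12 past the threshold. The core of the interferon-stimulated response element, searched on both strands as GAAA, any 2 bases, and GAAA, occurred in 3.44% of all 32851 windows. The 28 members had 35 windows, of which 2 held it (5.71%), those of *Gdf1* and *Inhbb*. Of the 8 members past the threshold, 1 held it, *Inhbb*. The match begins 198 bases before the RefSeq start, on the minus strand. It is shown in capitals within 30 bases, chr1:119422427-119422456. By the coordinates of the deposited table, which places the start of *Inhbb* further upstream, the match lies inside the gene.
Inhbb: cgccaaggcaGAAAGGGAAAgagcggaggg

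Of the TGF-β ligands, which act on SCs, fibroblasts and immune cells alike, *Tgfb1* and *Tgfb2* were higher by less than 2-fold and *Tgfb3* was not. *Tgfb1* read 1070, 1136 and 1109 against 1939, 1950 and 1352, with no overlap. Its log2 fold change was 0.64 (SE 0.16, adjusted p = 0.0143). *Tgfb2* read 192, 111 and 139 against 314, 265 and 265, also without overlap, and its log2 fold change was 0.96 (SE 0.26, adjusted p = 0.0211). The *Tgfb2* change lay just under 2-fold and went past it, to 1.16, without control-labelled replicate 1. *Tgfb3* read 1454, 994 and 806 against 901, 1211 and 815, so that the groups overlapped (log2 fold change -0.13, 95% interval -0.67 to 0.41).

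Among the BMPs, which take their name from the induction of bone, *Bmp7* (chromosome 2, 172868012 to 172940321, minus strand) fell. It read 409, 634 and 584 in the control-labelled libraries and 163, 110 and 142 in the mutant-labelled ones. The lowest control-labelled value was above the highest mutant-labelled one by more than 200 normalized reads. Its means of 542 ± 118 and 138 ± 26.7 were 3.92-fold apart, with a log2 fold change of -1.96 (SE 0.25, adjusted p = 0.000568). *Bmp7* put the libraries in the same order as the summed SC markers in 14 of the 15 library pairs, and in 5 of the 6 pairs within a genotype. The part of the SC markers in its change was not tested.

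*Bmp2*, a close relative of *Bmp4* that is used clinically to induce bone, rose but with an overlap. It read 431, 144 and 127 against 687, 587 and 417. The third mutant-labelled library was below the first control-labelled one. The log2 fold change was 1.47 (SE 0.44, adjusted p = 0.0326), and 2.02 without control-labelled replicate 1. *Bmp4* read 133, 47.2 and 54.5 against 113, 125 and 169, and its log2 fold change of 0.93 did not pass (adjusted p = 0.135). It passed without control-labelled replicate 1, at 1.38, and with libraries scaled to the same total, at 1.09.

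*Bmp8b*, a ligand known from germ cell development and from brown fat, was nearly silent in the control-labelled libraries, at 1.11, 1.89 and 0. In the mutant-labelled libraries it read 72.7, 72.4 and 60.3. These are 3 reads in all against 236 reads, a ratio of 63.2 with an exact 95% counting interval of 21.4 to 308. The interval covers counting error only. The fitted log2 fold change was 5.24 (SE 0.70, adjusted p = 0.000705) and depends on the pseudocount. Its near copy *Bmp8a*, with which reads could be shared, stood at 0 in 5 libraries and 5.93 in the other.

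*Bmp15*, an oocyte factor on the X chromosome, passed the threshold on weak evidence. It read 33.3, 3.78 and 2.53 against 42.2, 32.8 and 31.7, so that 1 control-labelled library was above 2 of the mutant-labelled ones. The log2 fold change was 2.12 (SE 0.89, unadjusted p = 0.0435, adjusted p = 0.1). Only without control-labelled replicate 1 did it pass in the 6 fits with a library left out, and it did not pass with edgeR (log2 fold change 1.42) or DESeq2 (1.43).

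The remaining BMPs did not pass. *Bmp3*, which opposes the bone-forming members, was at 832 ± 180 and 1168 ± 119 (log2 fold change 0.51, adjusted p = 0.0612). *Bmp5* and *Bmp6* had log2 fold changes of 0.17 and -0.05 with overlapping groups, and *Bmp10*, an endothelial and cardiac ligand, was too low to test, at 13.1 or less. *Bmp1*, a protease that cleaves procollagen and BMP antagonists, read 5734, 5700 and 5063 against 4236, 4925 and 3567. The mutant-labelled libraries were all below the others, and the log2 fold change was -0.38 (SE 0.13, adjusted p = 0.0484).

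Among the growth and differentiation factors, *Gdf6* and *Gdf11* rose. *Gdf6*, a BMP-like factor of joints and eye that is also expressed in dorsal neural tissue, read 15.5, 11.3 and 12.7 against 77.8, 128 and 55.4. The 3 control-labelled values lay within a few reads of each other, and all mutant-labelled values were above 50. Its log2 fold change was 2.56 (SE 0.49, adjusted p = 0.00452).

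*Gdf11*, a close relative of myostatin that signals through activin receptors, read 3180, 2981 and 2940 against 7547, 5485 and 6134, without overlap. The means of 3034 ± 129 and 6389 ± 1054 were 2.11-fold apart (log2 fold change 1.06, SE 0.13, adjusted p = 0.000396). The change was just past 2-fold and fell below it without mutant-labelled replicate 1, at 0.94, and with libraries scaled to the same 75th percentile, at 0.99.

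*Gdf1* shares its row with the ceramide synthase gene *Cers1*, with which it is co-transcribed, and the 2 cannot be told apart. The row read 487, 513 and 492 against 683, 210 and 163. Mutant-labelled replicate 1 was the highest of all 6 libraries and the other mutant-labelled libraries the lowest. The log2 fold change was -0.79 (adjusted p = 0.22), and -1.42 (adjusted p = 0.00326) without that library. *Gdf10*, described as a BMP-like inhibitor of adipogenesis, was as scattered, at 569, 195 and 190 against 230, 999 and 526. Its log2 fold change was 0.84 (adjusted p = 0.293), and it passed at 1.36 without control-labelled replicate 1 and at 1.39 without mutant-labelled replicate 1. *Gdf3*, *Gdf5* and *Gdf9* did not pass, with log2 fold changes of 0.60, 1.80 and 0.29, while *Gdf7* (highest value 11.6) and *Gdf2* (0 in all 6 libraries) were not tested.

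**Figure D2:**
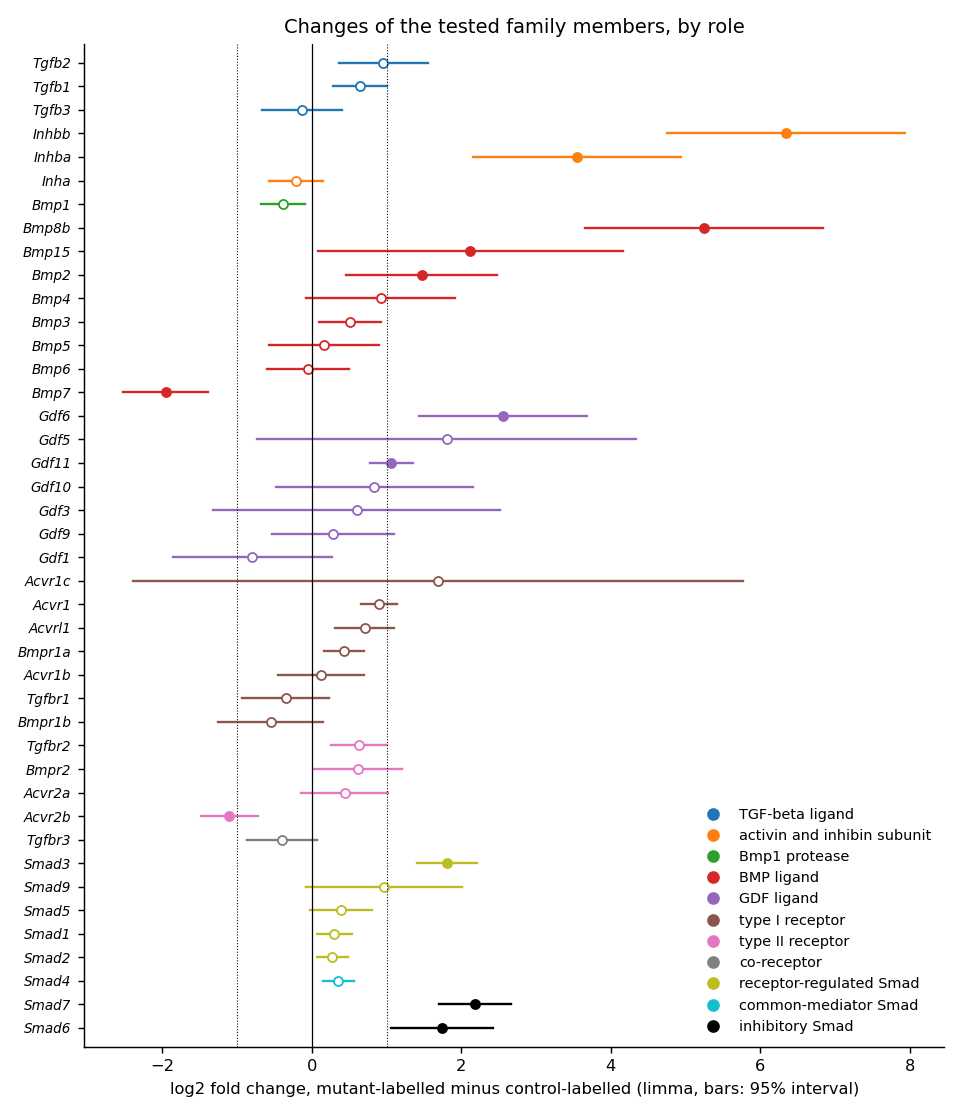
Log2 fold change, mutant-labelled minus control-labelled, of the 42 tested members grouped by role, with the 95% interval from limma; filled points passed the threshold. All 8 Smads lie above 0, and the type I receptors lie on both sides.

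None of the 12 receptor genes rose past the threshold, next to 13.9% of all genes tested. With only 12 genes, 0 lies near that share. Of the 7 type I receptors, which select the Smads that are phosphorylated, 3 were higher with an adjusted p at or under 0.05 (19.0% of all genes tested were), each by less than 2-fold. *Acvr1*, the type I receptor also called ALK2, read 939, 1023 and 1016 against 1868, 1840 and 1852. The 3 libraries of a genotype lay close together, with means of 993 ± 46.5 and 1853 ± 14.1. Its log2 fold change was 0.90 (SE 0.10, adjusted p = 0.000358), below the 2-fold limit, and 1.06 with libraries scaled to the same total.

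*Acvrl1*, the endothelial type I receptor ALK1, read 1267, 1014 and 812 against 1712, 1789 and 1481. All mutant-labelled libraries were above all control-labelled ones, with a log2 fold change of 0.71 (SE 0.17, adjusted p = 0.014). The summed endothelial markers were also higher, at 17026 to 25060 against 26107 to 33823. Of these 8 markers 0 passed the threshold, and none was at 0 in all libraries. An adjusted p at or under 0.05 was reached by 3 of them, next to 35.0% of all genes tested. The median log2 fold change of the 8 markers was 0.51. Their part in the *Acvrl1* difference was not tested. *Bmpr1a* read 1960, 1910 and 2002 against 2477, 2413 and 3053 (log2 fold change 0.43, adjusted p = 0.0223).

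The other type I receptors did not pass either test. *Tgfbr1*, the TGF-β type I receptor ALK5, was at 504 ± 182 and 382 ± 53.9 (log2 fold change -0.35, 95% interval -0.94 to 0.24). *Acvr1b*, the activin type I receptor, was at 285 ± 63.7 and 311 ± 74.2 (log2 fold change 0.12, interval -0.46 to 0.70), and *Bmpr1b* at 178 ± 52.2 and 120 ± 26.6 (log2 fold change -0.55, interval -1.25 to 0.15). *Acvr1c*, the receptor ALK7 that is abundant in fat, read 75.5, 0 and 27.9 against 21.8, 365 and 7.91. Its spread within a genotype exceeded the difference between them (log2 fold change 1.69, adjusted p = 0.496). The summed adipocyte markers, at 1596, 7.56 and 532 against 23.3, 6464 and 13.8, put the libraries in the same order as *Acvr1c* in 15 of 15 pairs.

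Of the pair of type II activin receptors, *Acvr2b* fell and *Acvr2a* did not pass the test. *Acvr2b* (chromosome 9, 119402178 to 119442148, plus strand) read 1655, 1686 and 1315 against 734, 839 and 596, and no mutant-labelled library reached the lowest control-labelled one. Its means of 1552 ± 205 and 723 ± 122 differed by 2.15-fold, with a log2 fold change of -1.11 (SE 0.17, adjusted p = 0.00136). The change was close to the limit and fell below 2-fold with libraries scaled to the same total, at -0.94, and without mutant-labelled replicate 3, at -0.97. *Acvr2a* read 652, 386 and 527 against 756, 508 and 866, with overlapping groups and a log2 fold change of 0.44 (95% interval -0.14 to 1.02).

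*Tgfbr2*, the type II receptor for TGF-βs, read 3551, 3558 and 2507 against 5004, 4210 and 5561. It did not overlap and its log2 fold change was 0.63 (SE 0.16, adjusted p = 0.0178). *Bmpr2*, the type II receptor for BMPs, was at 461 ± 177 and 675 ± 37.5 (log2 fold change 0.62, adjusted p = 0.0985). The co-receptor *Tgfbr3*, or betaglycan, which presents TGF-β2 and inhibin, was at 2865 ± 502 and 2195 ± 585 (log2 fold change -0.40, adjusted p = 0.162).

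**Figure D3:**
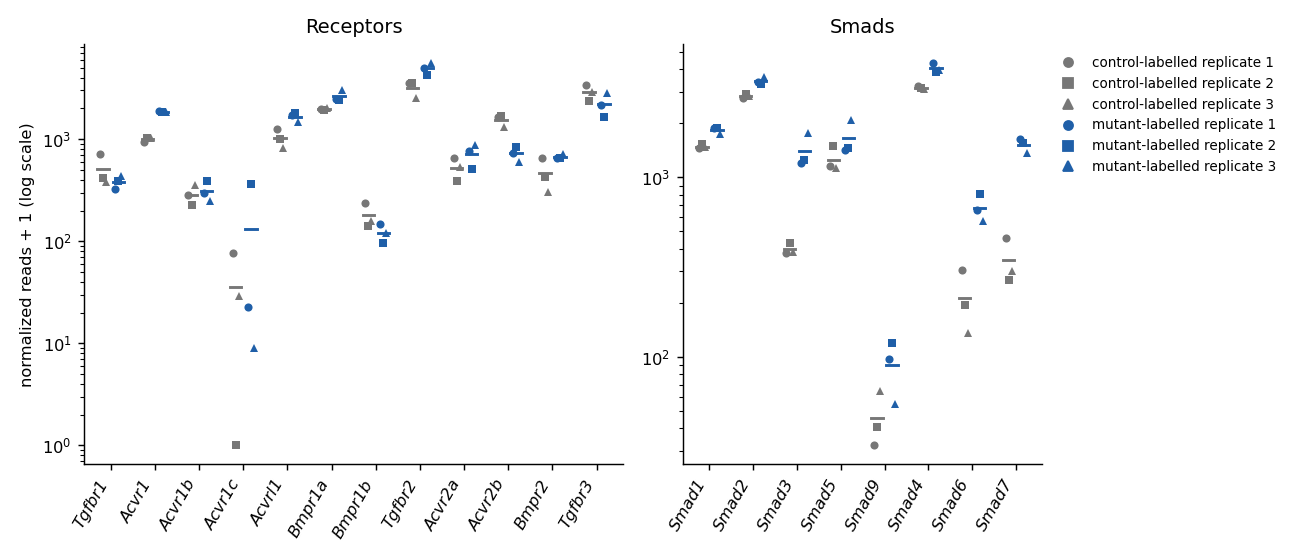
Normalized reads plus 1, on a log10 axis, of the 12 receptor genes and 8 Smads in each library; each point is 1 library and lines are group means. Among the receptors *Acvr2b* alone was past the threshold, and among the Smads *Smad3*, *Smad6* and *Smad7*.

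All 8 Smads had a positive log2 fold change, as had 51.6% of all genes tested, and 6 of the 8 were higher with an adjusted p at or under 0.05, as were 19.0%. Both inhibitory Smads and *Smad3* rose past the threshold. *Smad7*, which directs ubiquitin ligases to type I receptors, read 461, 268 and 300 against 1624, 1561 and 1371. The lowest mutant-labelled library was about 3 times the highest control-labelled one. The means of 343 ± 103 and 1519 ± 132 were 4.43-fold apart (log2 fold change 2.18, SE 0.21, adjusted p = 0.000137).

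*Smad6* (chromosome 9, 63953076 to 64022059, minus strand), which acts mainly on BMP signals, read 304, 193 and 134 against 654, 807 and 572. The groups did not overlap, with means of 210 ± 86.3 and 677 ± 119 and a log2 fold change of 1.75 (SE 0.30, adjusted p = 0.00255). Of the 35 promoter windows of the 28 members, only 1, that of *Smad6*, held the palindrome GTCTAGAC (2.86%). This Smad-binding sequence was found in 0.213% of all windows. Tested members without a window were not searched. The match begins 4 bases before the start, on the minus strand, and is in capitals within 30 bases, chr9:64022045-64022074.
Smad6: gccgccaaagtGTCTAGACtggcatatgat

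A GC-rich element, GGCGCC, was present in 11.9% of all windows and in 9 of the 35 windows of the tested members (25.7%). These windows belonged to 8 of the 28 tested members with a window. Of the 8 members past the threshold, 0 held it. These matches are descriptions of the letters in the windows.

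*Smad3*, a receptor-regulated Smad of the TGF-β and activin branch, read 378, 427 and 383 against 1198, 1249 and 1765. The control-labelled values were tightly grouped and all mutant-labelled ones far above. The means of 396 ± 27.2 and 1404 ± 314 were 3.55-fold apart (log2 fold change 1.80, SE 0.18, adjusted p = 0.000144). *Smad2*, which serves the same receptors, was at 2838 ± 70.4 and 3439 ± 170, a log2 fold change of 0.28 (SE 0.09, adjusted p = 0.0447).

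The Smads of the BMP branch differed by less than 2-fold. *Smad1* was at 1483 ± 40.2 and 1831 ± 77.3 without overlap (log2 fold change 0.30, adjusted p = 0.0462). *Smad5* was at 1255 ± 206 and 1657 ± 373 (log2 fold change 0.39, adjusted p = 0.133). *Smad9* was low and read 31.1, 39.7 and 63.4 against 96.0, 118 and 53.4, with an overlap (log2 fold change 0.97, adjusted p = 0.135). *Smad9* passed without replicate 3 of the control-labelled (1.24) or the mutant-labelled (1.29) libraries and with libraries scaled to the same total (1.13). *Smad4*, the partner common to both branches, read 3246, 3136 and 3098 against 4328, 3874 and 3957 (log2 fold change 0.36, SE 0.09, adjusted p = 0.0163).

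Ratios of 2 genes within a library do not depend on the scaling between libraries, and 5 were computed after the values had been seen. *Smad3* over *Smad2* was 0.136, 0.147 and 0.135 in the control-labelled libraries and 0.355, 0.377 and 0.486 in the mutant-labelled ones. *Smad7* over *Smad4* was 0.142, 0.0856 and 0.0969 against 0.375, 0.403 and 0.346. Both ratios of Smads were thus higher in every mutant-labelled library. *Acvr2b* over *Acvr2a* was 2.54, 4.36 and 2.50 against 0.970, 1.65 and 0.688, and *Bmp7* over *Bmp2* was 0.948, 4.41 and 4.61 against 0.237, 0.188 and 0.341. Both of these were lower in every mutant-labelled library. Each ratio had p = 0.1 in an exact two-sided permutation test, the smallest value that 3 against 3 libraries can give, and 0.1 after adjustment over the 5. Because the pairs were picked from genes already seen to differ, these p-values add no support and the ratios are descriptions.

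**Figure D4:**
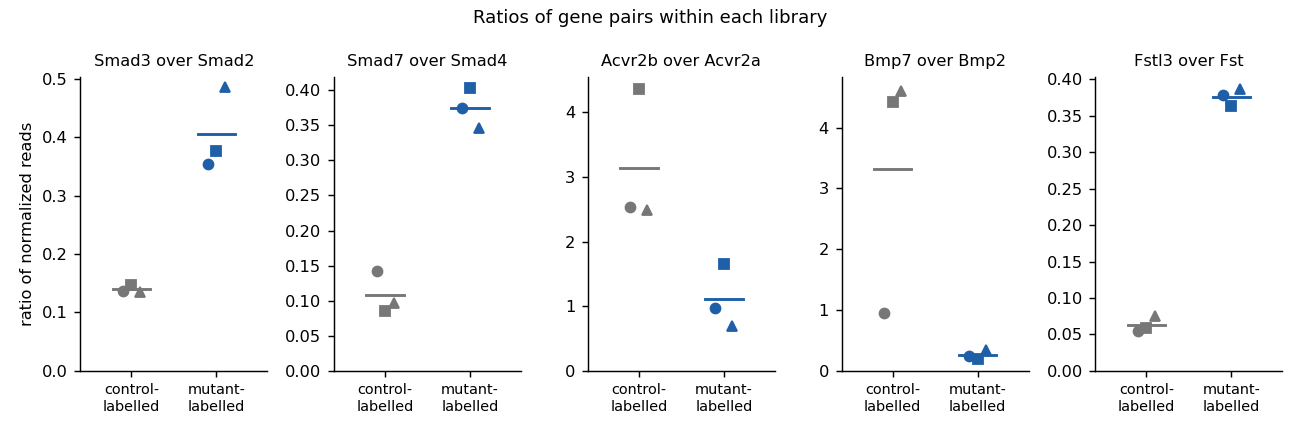
Ratio of normalized reads of 2 genes within each library, on a linear axis from 0, for 5 gene pairs; points are libraries and lines are group means. The 2 groups do not overlap in any of the 5 ratios, and *Bmp7* over *Bmp2* has 1 control-labelled library near the mutant-labelled ones, at 0.948.

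The order of the 6 libraries by each tested member was set beside their order by the sum of each of 13 marker lists, 546 combinations in all, and 16 combinations had the same order in at least 14 of the 15 library pairs. The endothelial sum was followed by *Bmp3* (15 pairs, and 6 of 6 within a genotype) and by *Acvrl1*, *Smad6* and *Inhba* (14 pairs, and 5 of 6). The lymphocyte sum was followed by *Gdf11* and *Smad4* (15 pairs, and 6 of 6) and by *Inhbb* (14 pairs). The neuron sum was followed by *Acvr1* (15 pairs, and 6 of 6) and by *Smad1* and *Smad2* (14 pairs). *Acvr2b* followed both the fibroblast and the perineurial sums (14 pairs, and 5 of 6). The others were *Bmp7* with SC, *Acvr1c* with adipocyte, *Tgfb3* with mural and *Bmpr1a* with muscle markers. Where a member and a marker sum both separate the genotypes in the same direction, all library pairs between genotypes agree for that reason alone. How many of the 546 combinations would reach this limit without any link was not computed. These counts are descriptions, and the part of the marker genes in the members' differences was not tested.

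Library by library, control-labelled replicate 1 gave the highest of the 3 control-labelled values for 25 of the 42 tested members (59.5%), next to 36.5% of all genes tested. The shares for the mutant-labelled libraries lay between 28.6% and 35.7%. *Bmp2*, *Bmp4*, *Bmp15*, *Inhba*, *Inhbb*, *Tgfb2*, *Smad6* and *Smad7* are among the 25. Without that library 13 members were higher past the threshold, and with it 10, while the share of all genes tested was 14.5% without and 13.9% with it.

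Outside the cell, ligands meet antagonists, latency proteins and co-receptors, and 26 of 30 such genes were tested. Of these, 6 rose and 3 fell (34.6% past the threshold, against 24.2% of all genes tested), and their median log2 fold change was 0.37. *Lrrc32*, which tethers latent TGF-β to the cell surface, read 2288, 2303 and 2100 against 8931, 10178 and 9867. The group means were 4.33-fold apart with little spread (log2 fold change 2.11, SE 0.09, adjusted p = 3.9e-06). *Ltbp2*, a matrix protein of the latent TGF-β binding family, rose (log2 fold change 2.39), whereas *Ltbp4* fell from 19481 ± 1700 to 8747 ± 3533 (log2 fold change -1.23, and -0.95 without mutant-labelled replicate 3).

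The 2 follistatins, secreted proteins that bind activins, moved in opposite directions. *Fst* read 7030, 5983 and 6875 against 3514, 3102 and 2865, and its log2 fold change was -1.07 (SE 0.11, adjusted p = 0.000209). It fell below 2-fold with libraries scaled to the same total, at -0.91. *Fstl3* read 384, 354 and 517 against 1329, 1128 and 1108, a log2 fold change of 1.52 (SE 0.18, adjusted p = 0.000366). The ratio *Fstl3* over *Fst* was therefore 0.0547, 0.0592 and 0.0752 against 0.378, 0.364 and 0.387.

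Also higher were *Eng*, the endothelial co-receptor endoglin (log2 fold change 1.21), the BMP co-receptor *Rgma* (1.18) and the BMP antagonist *Chrdl1* (1.18, and 0.94 without control-labelled replicate 3). The endothelial marker sums given with *Acvrl1* stand beside *Eng* as well. *Cer1*, a low BMP and Nodal antagonist, fell from 21.3 ± 13.2 to 2.26 ± 3.10 (log2 fold change -3.01, adjusted p = 0.0475), and did not pass without control-labelled replicate 1 or 2.

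Of 10 genes that process or activate ligands, 2 rose and 2 fell, against 13.9% and 10.4% of all genes tested. *Tll2*, a relative of the *Bmp1* protease, read 822, 748 and 683 against 53.1, 23.2 and 23.7. No other gene of the 5 lists or of the members fell as far (log2 fold change -4.56, SE 0.35, adjusted p = 4.44e-05), and *Tll1* fell with it (-1.45). *Thbs1*, thrombospondin 1, an activator of latent TGF-β, rose (1.74). So did *Itgb6*, the β subunit of an integrin that activates it (3.21, from 5.17 ± 1.44 to 68.1 ± 42.4). *Itgb6* read 96.0, 19.3 and 89.0 in the mutant-labelled libraries. Its log2 fold change lay between 2.82 and 3.95 with any 1 library left out.

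Of 21 intracellular regulators, 4 rose and 0 fell. The share past the threshold, 19.0%, was below the 24.2% of all genes tested. *Tgif1*, a transcriptional corepressor of Smads, read 1670, 1611 and 1540 against 7216, 6988 and 7522, with small spread in both groups (log2 fold change 2.17, SE 0.09, adjusted p = 2.93e-06). *Skil*, which encodes the Smad corepressor SnoN, rose from 1357 ± 161 to 4952 ± 802 (log2 fold change 1.86). *Pmepa1*, which sequesters receptor-regulated Smads, and *Usp15*, a deubiquitinase of the receptors and Smads, had log2 fold changes of 1.53 and 1.14.

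Of 18 genes known as transcriptional targets of these pathways in various cells, 17 were tested, 6 rose and 0 fell, and the median log2 fold change was 1.0. That is 35.3% past the threshold, against 24.2% of all genes tested. *Runx2*, an osteoblast regulator, read 41.1, 44.4 and 20.3 against 324, 304 and 535. All mutant-labelled libraries were far above the control-labelled ones (log2 fold change 3.45, SE 0.39, adjusted p = 0.000324). The summed cartilage and bone markers moved the other way, from 10288 to 13862 down to 290 to 737. *Ctgf*, a matricellular protein gene, rose by 2.06 and the cell cycle inhibitor gene *Cdkn2b* by 1.33, both on the log2 scale. *Tagln*, a smooth muscle and myofibroblast gene, had a log2 fold change of 1.72 with overlapping groups, at 8117, 3128 and 3031 against 7934, 22001 and 15876.

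The 4 Id genes are direct BMP targets. *Id3* read 1820, 1585 and 1201 against 2987, 3402 and 2753 and passed at the 2-fold limit itself, which it missed with edgeR (log2 fold change 0.99) and DESeq2 (0.99). *Id1* was at 938 ± 192 and 1765 ± 254 (log2 fold change 0.92, adjusted p = 0.00526). *Id2* and *Id4* were lower by less than 2-fold, with log2 fold changes of -0.56 (adjusted p = 0.0139) and -0.73 (adjusted p = 0.00378). Other BMP targets such as *Msx1* (0.73, adjusted p = 0.139) and *Msx2* (1.51, adjusted p = 0.475) did not pass.

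Of 6 further ligand and receptor genes of the superfamily that the naming rule did not take, 5 were tested and 2 rose, against 13.9% of all genes tested. Without mutant-labelled replicate 1 the genes past the threshold numbered 4. *Amhr2*, the receptor for anti-Müllerian hormone, read 9.99, 18.9 and 32.9 against 130, 135 and 104 (log2 fold change 2.66, adjusted p = 0.00394). *Mstn*, or myostatin, read 0, 1.89 and 10.1 against 53.8, 15.4 and 151 (log2 fold change 4.02, adjusted p = 0.0234). It ordered the libraries as the summed muscle markers did in 13 of 15 pairs, and their part in its change was not tested.

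**Figure D5:**
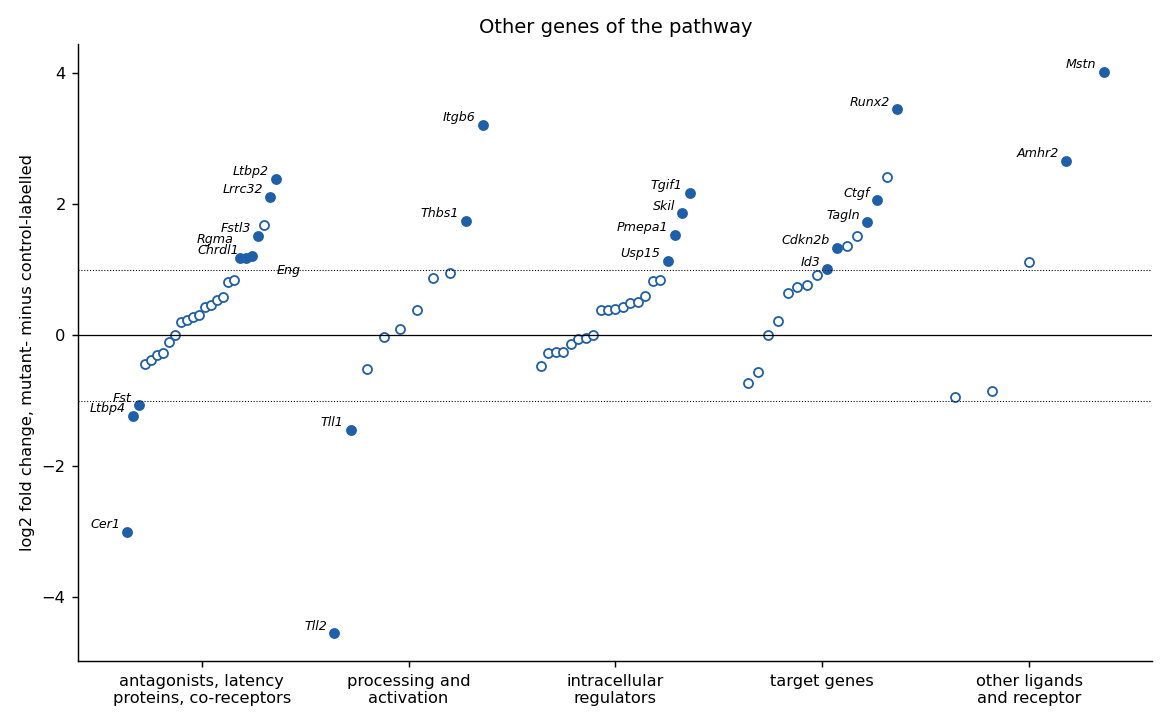
Log2 fold change, mutant-labelled minus control-labelled, of tested genes of 5 pathway lists, sorted within a list; filled, named points passed the threshold and dotted lines mark 2-fold. The intracellular regulators and target genes have filled points above 0 only, and the antagonist and activation lists have them on both sides.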

How the data were processed

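The authors deposited 1 table whose values are a signal for each gene in each library, namely reads mapped to mm10 with STAR 2.4.0 and counted on constitutive regions of each gene, divided by DESeq size factors. Dividing by the value of a single read gave whole reads for 100% of values (tolerance 0.1 read), and edgeR 4.0.16 and DESeq2 1.42.0 were run on those as alternatives. In the main comparison log2(value + 1) was fitted with limma 3.58.1 (lmFit, eBayes with trend; R 4.3.3) for genes with a mean of at least 10 in at least 1 genotype, with Benjamini-Hochberg adjustment over all 25802. A change past the threshold had p at or under 0.05 and at least 2-fold, the limits in the methods of the study. Scripts were tested on simulated data.

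Groups and replicate numbers came from the labels. Members, pathway and marker lists, and motifs were chosen with earlier results of these data known. Named with values were members past the threshold, all receptors and Smads tested, and members with an adjusted p at or under 0.05 below 2-fold. Other members were given by range and counts with some values, and of each pathway list the genes past the threshold, at most 8 by size of change. *Fst*, the other pathway genes, the ratios and per-library values were chosen after values were seen. Members overlapped another annotated gene on the same strand in 15 of 48 cases and on the other strand in 22. Use of strand in counting is not given in the sources used here, and reads shared with such genes were not separated. Sequences are from RefSeq, and proteins were not analysed here. The values of 1 gene of the target list, which its counts and median include, are not reported here.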

Additional observations from a re-analysis of the deposited data

How the results depend on the processing

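The counts of genes past the threshold and the log2 fold changes of named genes were recomputed under 12 other settings (pseudocounts 0.1 and 10, other low-value filters, other scalings, eBayes without trend, edgeR, DESeq2, an adjusted p limit and a replicate block) and with each library left out; the ratios, library orders, marker sums and motif counts were not. The members past the threshold numbered 11 to 15 over the settings and 11 to 15 with a library left out. Those lower numbered 1 with libraries scaled to the same total, and 1 to 3 with a library left out (1 without mutant-labelled replicate 3, 3 without mutant-labelled replicate 1). The further ligand and receptor genes past the threshold numbered 2 to 4 with a library left out (4 without mutant-labelled replicate 1). Of 723 recomputed values of single members, 14 were no longer past the threshold, 11 were newly past it, and no called one changed sign. Scaling to the same total moved the median of all genes from 0.03 to 0.19 and gave 14 members higher and 1 lower. The replicate block gave 12 members, 10 higher and 2 lower, and same-numbered libraries did not deviate together (r = -0.06, -0.06 and 0.01), so the numbers were not taken as pairs. Low members such as *Inhba*, *Bmp8b* and *Bmp15* rest on few reads in control-labelled libraries.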
